A study of Mus musculus with 72 samples.

Results

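Smchd1, its partner gene Lrif1 and 6 genes of the SMC complexes (Smc2, Smc3, Smc4, Smc5, Smc6 and Rad21) were followed as chromatin-associated RNA from embryonic stem (ES) cells to neural precursor cell (NPC) cultures. The genes were picked by name, and these 8 were among 22556 genes counted in 72 libraries. The question was how far the RNA of each gene, and the share of it that came from each parental allele, changed with differentiation and with Smchd1 knockout (KO).

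The cells were female mouse ES cells from a cross of Dom/129S and Cast mice, whose chromosomes can be told apart by sequence differences. In iXist-ChrX-Dom cells a TetOn promoter drives the 129S copy of Xist, and in iXist-ChrX-Cast cells it drives the Cast copy. Doxycycline in the medium induced Xist, the RNA that starts X chromosome silencing, in every differentiating culture, WT and KO alike, so no library separates differentiation from Xist induction. The KO lines were clone A3 in Dom and clones D5 and G6 in Cast, and each is 1 clone, so the knockout and the history of a clone cannot be told apart in Dom. Feeder fibroblasts were taken out by pre-plating before differentiation. Runs of the same replicate were summed, which left 65 samples: 12 of Dom WT, 14 of A3, 14 of Cast WT, 13 of D5 and 12 of G6. Days 2, 3, 5 and 7 had 2 or 3 replicates, whereas days 15, 21, 35 and, in Dom, 52 had 1 library per clone. ES libraries without doxycycline were used here for the KO clones only. The labels do not say what separates replicates, so p-values cover the spread between these samples, which may be technical.

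SMC proteins are long ATPases that pair up and close around DNA, and each pair works in a complex of its own. Condensin, built on Smc2 and Smc4, compacts chromosomes for mitosis. Cohesin, with Smc3 and the kleisin Rad21, holds sister chromatids together and forms loops. The Smc5/6 complex acts in DNA repair. SmcHD1 is a noncanonical SMC protein that acts in silencing on the inactive X chromosome and at some autosomal clusters, and Lrif1 is a nuclear protein that binds both HP1 and SmcHD1.

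The sequences that bear on what the Smchd1 count can show are the exons that the guides were designed against, exons 23 and 24 of the 48 in the GENCODE transcript (GRCm38, minus strand). Exon 23 lies at chr17:71400059-71400198 and exon 24 at chr17:71398552-71398689. They are printed 5′ to 3′ in lower case.
Smchd1 exon 23: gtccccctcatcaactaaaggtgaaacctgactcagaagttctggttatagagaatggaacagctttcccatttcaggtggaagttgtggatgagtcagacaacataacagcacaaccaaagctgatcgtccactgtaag
Smchd1 exon 24: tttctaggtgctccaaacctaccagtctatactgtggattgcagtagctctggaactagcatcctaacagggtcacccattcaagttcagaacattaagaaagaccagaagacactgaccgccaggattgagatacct
Both exons together hold 278 bases, which is 0.212% of the span over which Smchd1 fragments were counted, and with the intron between them the interval holds 1647 bases, or 1.26%. Fragments were counted over whole genes, introns included. A change confined to this interval would therefore leave nearly all of the counted span in place, and the count in a KO library is no check of the knockout. The mutated alleles of the KO clones were not analysed here. In the study the KO clones were checked by western blot, KO lines were also checked by immunofluorescence for SmcHD1, and the mutated sequences were shown. That evidence was not analysed here.

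Promoters (250 bases before to 50 after the start of transcription, RefSeq, GRCm38.p6) were given for 6 of the 8 genes and not for Smc4 and Rad21. Those of Smc2 and Lrif1 are shown because Smc2 had the largest late fall of the 8 genes in each clone and Lrif1 rose in 3 of 5 clones. Capitals mark TTTGAA, the core of the cell cycle homology region, and CCAAT, on either strand.
Smc2 promoter, chr4:52438971-52439270, plus strand: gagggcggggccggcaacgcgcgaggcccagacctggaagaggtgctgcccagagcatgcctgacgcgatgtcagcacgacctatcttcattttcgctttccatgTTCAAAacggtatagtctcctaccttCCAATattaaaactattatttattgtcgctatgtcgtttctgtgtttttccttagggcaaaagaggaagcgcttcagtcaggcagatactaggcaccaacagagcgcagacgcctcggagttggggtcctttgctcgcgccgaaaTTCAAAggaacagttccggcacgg
Lrif1 first promoter, chr3:106684737-106685036, plus strand: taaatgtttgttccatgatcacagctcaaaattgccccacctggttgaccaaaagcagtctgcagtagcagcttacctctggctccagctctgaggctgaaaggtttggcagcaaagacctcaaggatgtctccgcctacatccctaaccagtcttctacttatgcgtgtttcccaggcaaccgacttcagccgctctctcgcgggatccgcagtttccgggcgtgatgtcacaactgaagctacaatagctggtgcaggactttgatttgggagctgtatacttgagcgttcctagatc
The Smc2 promoter held TTTGAA 2 times on the minus strand, from positions 106 and 277 of the printed strand, and CCAAT 1 time on the plus strand at position 132. The first Lrif1 promoter held neither, and a second one, not printed, held CCAAT 2 times on the minus strand, at positions 41 and 183. Among 32851 promoters of the same length, 17.9% held TTTGAA and 37.4% held CCAAT. The Smchd1 and Smc6 promoters also held TTTGAA, 1 time each, whereas none of the 7 promoters of these genes held an E2F sequence (TTTGGCGC, TTTCCCGC, TTTGCCGC or TTTCGCGC), which 2.26% of all promoters held. These matches describe letters in a window and not bound sites.

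Libraries held between 9344054 and 31216487 counted fragments, and 44.8 to 50.3% of them could be given to an allele. Summed ES markers went from 911 to 1338 RPM (fragment counts scaled to library size) in ES libraries to 2.72 to 152 RPM on days 15 and later, hereafter late days, and summed neural precursor markers went from 26.8 to 62.0 RPM to 129 to 914 RPM. Of the defining precursor genes, Sox1 was at 0 in every library of every period, so it does not tell the cultures apart. Whether the counting could score Sox1 at all was not tested. On late days Olig2 had 3 or fewer fragments in 13 of 17 libraries. Fibroblast markers (6 genes) summed to 242 to 16140 RPM on late days, against 5.91 to 16.4 RPM on days 2 and 3. The 15 proliferation genes summed to 354 to 2007 RPM on late days, against 2393 to 3778 RPM on days 2 and 3, and were lowest in A3 on day 52 (354 RPM) and in G6 on day 35 (553 RPM). Zfp42, an ES cell factor, changed by -4.88 in Dom WT and -5.20 in Cast WT on late days, and Vim, an intermediate filament gene of precursors and mesenchyme, by 3.62 and 5.13. These shifts run with every late value below, and their part in the results was not tested. In bulk cultures, fewer cells of a type and less RNA per cell cannot be told apart.

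Values are given as normalised RPM, the RPM after scaling by edgeR's trimmed mean of M-values (TMM) within each line. Changes are log2 fold changes with a 95% confidence interval or SE, and p-values are from edgeR's quasi-likelihood test, adjusted (Benjamini-Hochberg) over all genes tested with a threshold of 0.05. On late days the scaling itself moved the median gene by 0.27 to 0.44 on the log2 scale relative to library totals, so late changes are relative to the bulk of genes. Of the genes called on late days, 50.3 to 55.9% were higher with TMM and 30.3 to 35.5% with library totals. On days 5 and 7 that share went from 62.7 to 46.2% in A3, from 50.0 to 37.7% in Cast WT, from 50.2 to 38% in D5 and from 49.4 to 34.7% in G6.

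Per kilobase of counted gene, Smc4 had the highest level in WT cultures on days 2 and 3 (12.6 ± 1.44 normalised RPM per kilobase, SD, n = 9), and its lowest library (10.8) lay above the highest of Smc2 (7.65). Smc2 followed at 6.84 ± 0.66 and Rad21 at 5.41 ± 0.71. Smchd1 (4.01 ± 0.54) and Smc6 (3.87 ± 0.27) were not separated, Smchd1 being the higher in 5 of 9 libraries. Smc3 (3.50 ± 0.15) and Smc5 (3.26 ± 0.30) also overlapped, and Lrif1 was lowest at 1.86 ± 0.37, below every library of Smc5. On late days Smc4 still had the highest level (10.2 ± 1.19, n = 7), apart from all others, and Rad21 (5.08 ± 1.12) was above Smc2 (4.20 ± 1.03) in 7 of 7 libraries although their ranges overlapped. Lrif1 was again lowest at 2.28 ± 0.52, below Smc3 in 6 of 7 libraries.

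**Figure D1:**
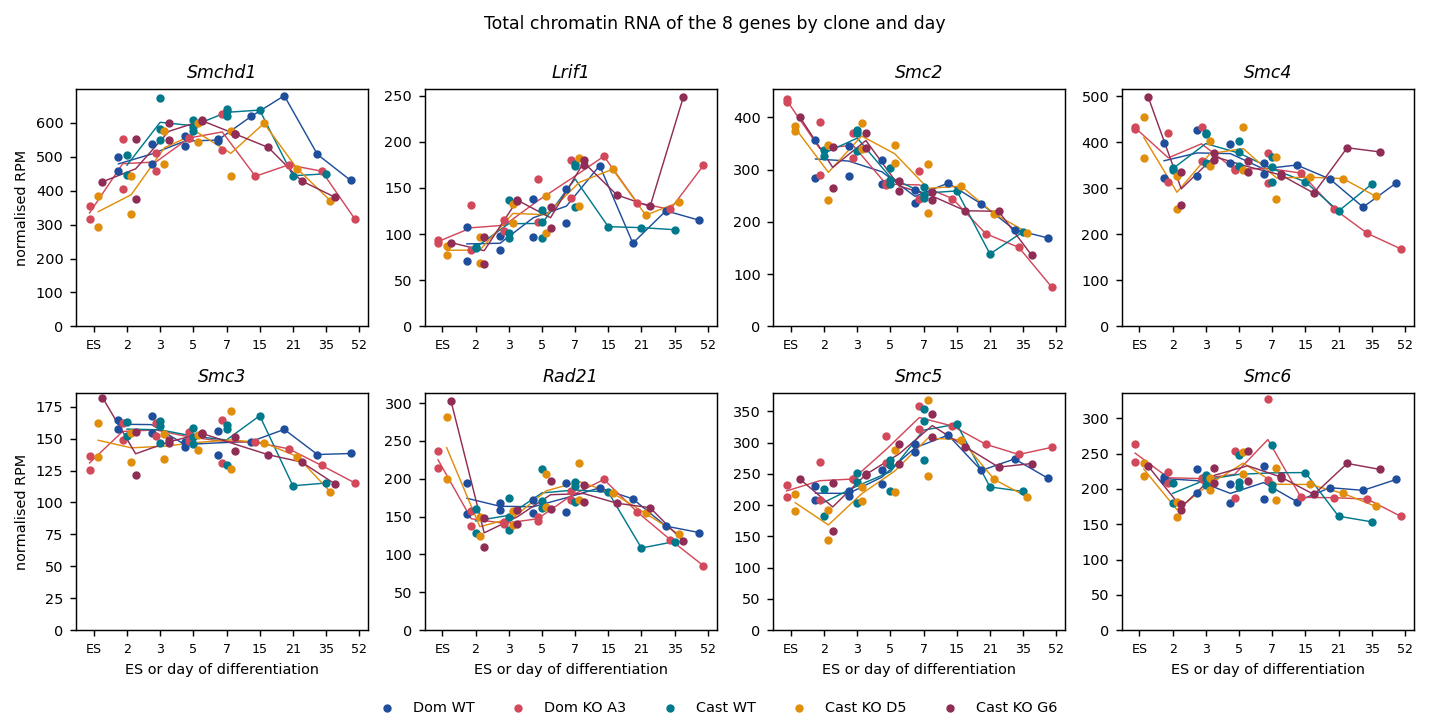
Total chromatin RNA (y axis, normalised RPM) of each of the 8 genes against ES or day of differentiation (x axis, evenly spaced), with 1 point per sample, clones by colour and lines through the mean of each clone and day. Smc2 lies between 242 and 391 normalised RPM on days 2 and 3 and between 74.6 and 274 on late days. Smchd1 lies between 332 and 672 on days 2 and 3, between 316 and 679 on late days, and as low as 292 in an ES library.

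Smchd1, the targeted gene, is described first (counted over chr17:71344492-71475343, mm10, minus strand). KO cultures held Smchd1 RNA over much the same range as WT cultures. On days 2 to 7 its lowest, median and highest values were 458, 534 and 560 normalised RPM in Dom WT (n = 8) and 406, 536 and 626 in A3 (n = 8). In Cast they were 444, 589 and 672 in WT (n = 11), 332, 511 and 598 in D5 (n = 8) and 376, 567 and 608 in G6 (n = 8). All of these ranges overlap. The log2 difference of A3 from WT was 0.00 (-0.15 to 0.16, adjusted p = 0.99), and that of both Cast clones from WT was -0.14 (-0.28 to 0.00, adjusted p = 0.52). Separately, D5 stood 0.22 below WT (-0.38 to -0.06, adjusted p = 0.066) and G6 0.06 below (-0.22 to 0.09, adjusted p = 0.77), and the difference between the clones was -0.16 (SE 0.08, adjusted p = 0.16). The D5 value passed the threshold in 3 of 5 other settings (adjusted p from 0.022 to 0.11). Of 6 marker genes tested on the same days (Nanog, Pou5f1, Pax6, Nes, Top2a and Mki67), D5 stood above WT in the ES cell gene Nanog (0.62, adjusted p = 0.0025) and the proliferation gene Top2a (0.33, adjusted p = 0.0030). D5 also stood above G6 in Nanog (1.02, adjusted p = 2.1e-05), Pou5f1 (0.60, adjusted p = 0.0059) and Top2a (0.51, adjusted p = 4.8e-05). A3 differed from WT in the neural gene Pax6 (-1.15, adjusted p = 0.033), and G6 differed from WT past the threshold in none of the 6. Their part in the Smchd1 differences was not tested. The median gene of chromosome 17 was 0.05 higher in D5 than in WT.

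On late days Smchd1 read 618, 679, 506 and 430 normalised RPM in Dom WT on days 15, 21, 35 and 52, and 442, 476, 457 and 316 in A3. A3 was lower than WT on each of the 4 days, with a log2 difference of -0.42 (-0.70 to -0.14) that did not pass the correction (adjusted p = 0.46). The median gene of chromosome 17 differed by -0.02 in the same comparison. In Cast the values of days 15, 21 and 35 were 637, 444 and 449 in WT, 598, 464 and 370 in D5, and 527, 429 and 381 in G6. The groups overlapped, with a difference of -0.15 (-0.43 to 0.14, adjusted p = 0.63).

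Fitted without a replicate block, none of the 8 genes passed the threshold in KO against WT in either line or period. The background was low: 0.803% of 15443 genes were called in Dom on days 2 to 7 and 0.381% of 15499 in Cast. On late days 0% were called by edgeR in either line, although 1622 genes in Dom and 1898 in Cast had an unadjusted p below 0.05 and DESeq2 called 186 and 444. At an unadjusted p below 0.05 there were 3 of the 8 genes in Dom on late days and 1 in Cast. Taken alone, D5 differed from WT on days 2 to 7 in 11% of genes and G6 in 2.25%, and the clones differed from each other in 24.1%, again with 0 of the 8 genes called in each. On late days these shares were 0% for D5, 0.00668% for G6 and 0% between the clones. With library totals, the higher share among the calls on days 2 to 7 went from 46.8 to 31.8% in Dom, from 39.7 to 55.8% in D5 and from 64.8 to 50.9% in G6.

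Some of the differences from WT were larger on late days than on days 2 to 7, with wide intervals. Lrif1 was higher in KO than in WT by 0.29 in Dom (-0.05 to 0.64, adjusted p = 0.47) and by 0.53 in Cast (0.04 to 1.02, adjusted p = 0.37). In Cast, Lrif1 read 108, 107 and 105 normalised RPM in WT on days 15, 21 and 35, against 170, 121 and 135 in D5 and 142, 130 and 248 in G6, so the KO and WT values did not overlap. In Dom they overlapped, with 174, 90.2, 125 and 115 in WT and 184, 134, 127 and 175 in A3. Smc2 was 0.53 lower in A3 than in Dom WT (-1.03 to -0.03, adjusted p = 0.46) and Smc4 was 0.43 lower (-0.84 to -0.03, adjusted p = 0.46). In Cast the same differences were 0.10 (-0.35 to 0.55) and 0.18 (-0.19 to 0.55), both toward KO. Proliferation genes were lowest of all in A3 on day 52, the library in which Smc2 also had its lowest value. For the remaining genes and comparisons the differences lay between -0.24 (Rad21, Dom, late days) and 0.26 (Lrif1, Dom, days 2 to 7).

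**Figure D2:**
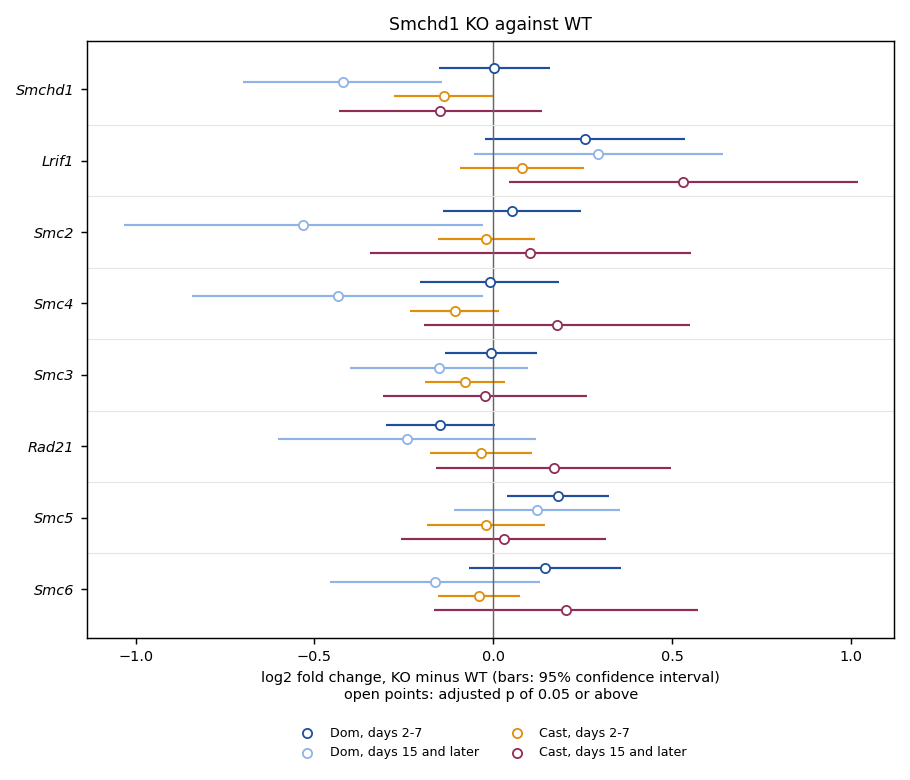
Log2 fold change of KO against WT (x axis) for the 8 genes (y axis), in Dom and Cast on days 2 to 7 and on late days, with 95% confidence intervals as bars. All points are open, since no adjusted p was below 0.05, and the late intervals are wider, reaching 1.02 for Lrif1 in Cast.

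Whether KO altered the change from days 2 and 3 to late days was tested as a difference of differences. No gene of the 8 passed, beside 0% of 17113 genes in Dom and 0.028% of 17869 in Cast. The largest differences were -0.52 for Smc2 (-1.18 to 0.14), -0.42 for Smc4 (-0.90 to 0.05) and -0.37 for Smchd1 (-0.77 to 0.04) in Dom, and 0.49 for Lrif1 (-0.15 to 1.12) in Cast.

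Of the condensin genes, Smc2 fell from days 2 and 3 to late days in 5 of 5 clones and Smc4 in 2. Smc2 (chr4:52439248-52488259, plus strand), the subunit shared by both condensins, was at 357, 283, 345 and 288 normalised RPM in Dom WT on days 2 and 3 and at 274, 234, 185 and 169 on days 15, 21, 35 and 52. Cast WT read 336, 326, 371, 375 and 335 on days 2 and 3 and 259, 139 and 181 on late days. In both, every late value was below every value of days 2 and 3. A3 went from 289, 391, 322 and 371 to 244, 177, 151 and 74.6, also with no overlap. D5 went from 347, 242, 340 and 388 to 268, 215 and 180, where the day 15 value lay above 1 early replicate. G6 went from 343, 265, 341 and 370 to 221, 220 and 136 without overlap. ES libraries were the highest in A3 (436 and 429) and G6 (401) and stood at 384 and 374 in D5.

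The late log2 change of Smc2 was -0.56 in Dom WT (SE 0.22, adjusted p = 0.044), -1.08 in A3 (SE 0.23, adjusted p = 0.00037), -0.85 in Cast WT (SE 0.18, adjusted p = 0.00025), -0.58 in D5 (SE 0.19, adjusted p = 0.010) and -0.78 in G6 (SE 0.19, adjusted p = 0.00082). It passed in 5 of 5 clones. The background here is high, since 48.7% of genes were called in Dom WT, 59.5% in A3, 48.9% in Cast WT, 52.5% in D5 and 53.9% in G6 on late days, and 22.6, 26.2, 22.5, 26.1 and 26.1% were called lower. The 2 WT lines share no samples. With library totals the falls were larger, from -0.83 to -1.47, and passed in 5 of 5. In Dom WT the call was lost without replicate 1 (-0.39) or 2 (-0.75), without the library of day 21 (-0.60, adjusted p = 0.050), day 35 (-0.49) or day 52 (-0.46), and without replicate 1 (-0.59), replicate 2 (-0.56) or day 21 (-0.56) of A3, which shares its fit. In D5 it was lost without replicate 1 (-0.51, adjusted p = 0.064) or day 35 (-0.42, adjusted p = 0.11). On days 5 and 7 the change was between -0.15 and -0.37, and passed in Cast WT alone (-0.37, adjusted p = 0.048). That call was lost in 15 of 21 other settings (-0.34 to -0.37): without any 1 of its replicates, without 3 of the single replicates or 5 of the single late libraries of D5 and G6, without its own library of day 21 or 35, without a filter on low counts and with runs as separate replicates.

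Smc4 (chr3:69004971-69034623, plus strand), the other condensin ATPase, had a late change of -0.67 in A3 (SE 0.16, adjusted p = 0.0014) and of -0.37 in Cast WT (SE 0.15, adjusted p = 0.038), both of which passed. In A3 it ranged from 313 to 434 normalised RPM on days 2 and 3 and from 169 to 333 on late days, and in Cast WT from 340 to 420 and from 250 to 314. The A3 ranges overlapped and the Cast WT ranges did not. The changes in Dom WT (-0.25), D5 (-0.11) and G6 (0.08) did not pass. With library totals all 5 passed, from -0.37 to -1.08, so that the sign in G6 turned. The Cast WT call was lost without replicate 1 (-0.35) or 2 (-0.35), without the library of day 15 (-0.41), day 21 (-0.25) or day 35 (-0.42), and without replicate 1 of G6 or the day 15 or day 21 library of D5 (-0.36 in each). Of the other 6 condensin subunits, 1 was called lower on late days in Dom WT, 4 in A3 and 3 in each of Cast WT, D5 and G6, and 0 were called higher, against 22.5 to 26.2% of all genes called lower and 26.1 to 33.3% higher. Their medians lay between -0.14 and -0.44, against medians over all genes between -0.03 and 0.12. Ncapg, a subunit of condensin I, changed by -0.70 in Dom WT (adjusted p = 0.044) and by -1.34 in Cast WT (adjusted p = 6.3e-07).

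Of the 15 proliferation genes, 8 were called lower in Dom WT, 14 in A3, 12 in Cast WT, 11 in D5 and 14 in G6, and 0 higher, beside the same shares of all genes. Ccnb1, the mitotic cyclin B1, changed by -1.17 in Dom WT (adjusted p = 0.0046) and -1.22 in Cast WT (adjusted p = 0.00026), and Mcm2, a subunit of the replicative helicase, by -1.001 in Dom WT (adjusted p = 0.0046) and -1.01 in Cast WT (adjusted p = 0.00040). The 2 proliferation markers tested beside the results differed. Top2a fell past the threshold in each clone, by -0.82 in Dom WT, -1.46 in A3, -1.01 in Cast WT, -0.89 in D5 and -1.15 in G6. Mki67 passed in no clone (adjusted p from 0.091 to 0.81). Its late changes were -0.08 in Dom WT, -0.49 in A3, -0.13 in Cast WT, 0.20 in D5 and -0.11 in G6. How much of the fall of Smc2 and Smc4 goes with the share of dividing cells was not tested.

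**Figure D3:**
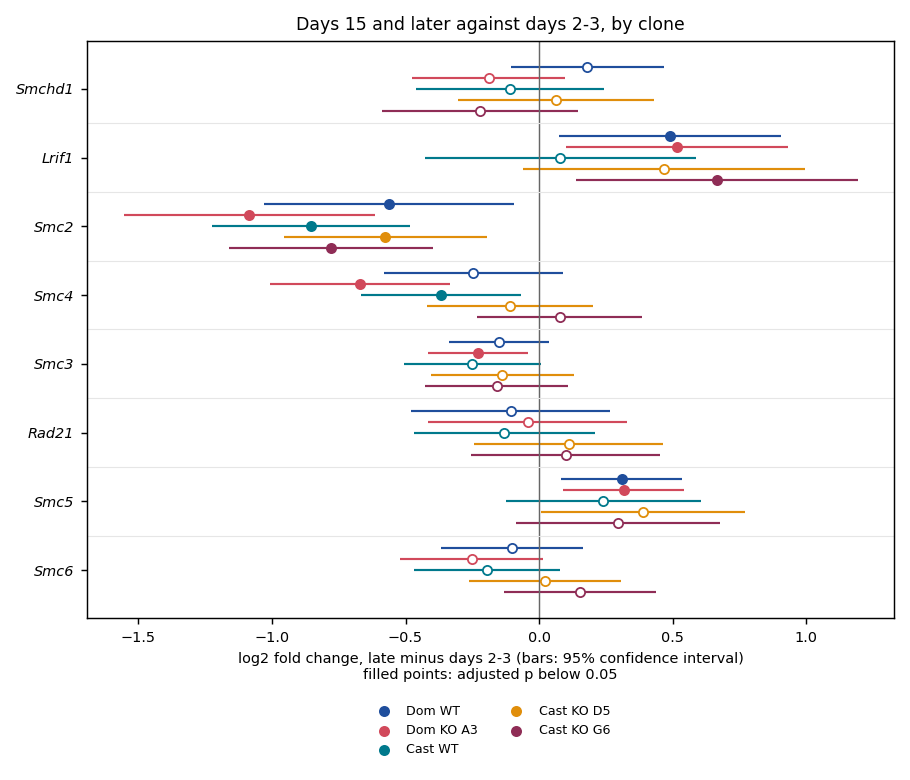
Log2 fold change of late days against days 2 and 3 (x axis) for the 8 genes (y axis) in each of the 5 clones, with 95% confidence intervals as bars and filled points where the adjusted p was below 0.05. Smc2 is filled on the lower side in 5 of 5 clones (-0.56 to -1.08) and Lrif1 on the higher side in 3 (0.49 to 0.67), while Smchd1, Smc6 and Rad21 have open points only.

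Lrif1 (chr3:106684986-106736576, plus strand) rose in 3 of 5 clones. On days 2 and 3 it was at 108, 71.3, 97.6 and 82.6 normalised RPM in Dom WT, at 82.7, 131, 104 and 116 in A3 and at 96.4, 67.8, 136 and 137 in G6. On days 5 and 7 the means lay above those of days 2 and 3 in every clone, between 124 and 148 normalised RPM, but the changes of 0.43 to 0.47 did not pass (adjusted p from 0.11 to 0.19). The late change was 0.49 in Dom WT (SE 0.20, adjusted p = 0.047), 0.52 in A3 (SE 0.20, adjusted p = 0.031) and 0.67 in G6 (SE 0.26, adjusted p = 0.030). D5 (0.47, adjusted p = 0.13) and Cast WT (0.08, adjusted p = 0.82) did not pass. On late days 26.1% of genes in Dom WT, 33.3% in A3, 26.4% in Cast WT, 26.4% in D5 and 27.8% in G6 were called higher. The late values of Dom WT (90.2 to 174), A3 (127 to 184) and G6 (130 to 248) overlapped those of days 2 and 3. These calls were lost in many other settings. DESeq2 gave 0.43 in Dom WT (adjusted p = 0.074) and 0.44 in A3 (adjusted p = 0.064), and without a filter on low counts they were 0.49 (adjusted p = 0.064) and 0.46 (adjusted p = 0.069), so neither call was kept. The Dom WT call was also lost without the library of day 15 (0.30, adjusted p = 0.22), day 35 (0.50, adjusted p = 0.074) or day 52 (0.53, adjusted p = 0.056), the A3 call without its day 15 (0.37, adjusted p = 0.14) or day 52 library (0.39, adjusted p = 0.13), and the G6 call without day 35 (0.32, adjusted p = 0.37). Among replicates, the Dom WT call was lost without its replicate 2 (0.25) or replicate 1 (0.46) or 2 (0.49) or day 52 (0.45) of A3, the A3 call without its replicate 1 (0.27) or replicate 1 (0.47), replicate 2 (0.45), day 35 (0.47) or day 52 (0.47) of Dom WT, and the G6 call without its replicate 1 (0.76) or 2 (0.58). With library totals no Lrif1 call remained, and the change was 0.21 in Dom WT, 0.08 in A3, 0.13 in D5, 0.21 in G6 and -0.23 in Cast WT, where the sign turned.

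Lrif1 binds HP1, and of 10 genes for HP1 proteins and for enzymes and cofactors of H3K9 methylation, 5 were called lower on late days in Dom WT, 5 in A3, 7 in Cast WT, 6 in D5 and 6 in G6. Only A3 had any called higher (1). Beside these, 22.5 to 26.2% of all genes were called lower. The medians lay between -0.27 and -0.56. Cbx1, which encodes HP1 beta, changed by -0.89 in Dom WT (adjusted p = 0.00041) and -1.05 in Cast WT (adjusted p = 2.6e-05), and the methyltransferase gene Suv39h2 by -0.85 (adjusted p = 0.028) and -1.13 (adjusted p = 0.0041).

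Smc5 (chr19:23206440-23273897, minus strand) was higher on days 5 and 7 in 3 of 5 clones and on late days in 2. Its range on days 2 and 3 was 208 to 230 normalised RPM in Dom WT and 183 to 251 in Cast WT, and on days 5 and 7 it was 234 to 298 and 223 to 353. The ranges did not overlap in Dom WT and overlapped in Cast WT. The change on days 5 and 7 was 0.39 in A3 (SE 0.11, adjusted p = 0.014), 0.38 in Cast WT (SE 0.15, adjusted p = 0.048) and 0.54 in D5 (SE 0.18, adjusted p = 0.022), which passed, and 0.29 in Dom WT (adjusted p = 0.081) and 0.45 in G6 (adjusted p = 0.053), which did not. Beside these, 23% of genes were called in either direction in A3 on days 5 and 7, 34.3% in Cast WT, 25.6% in D5, 11.6% in Dom WT and 27.2% in G6. Those called higher were 14.4, 17.1, 12.8, 7.26 and 13.5% in the same order. Each of these 3 calls was lost when either replicate of its clone was left out, or any of 3 in Cast WT, whose call was also lost without replicate 1 of G6 (0.32 to 0.64 over these settings). With library totals the change was 0.25 in A3 and 0.27 in Cast WT, and neither passed. On late days the change was 0.31 in Dom WT (SE 0.11, adjusted p = 0.023) and 0.32 in A3 (SE 0.11, adjusted p = 0.016), both past the threshold. It was 0.24 in Cast WT, 0.39 in D5 and 0.29 in G6, where it was not called. With library totals the late change was 0.03 in Dom WT and turned to -0.11 in A3, -0.06 in Cast WT and -0.13 in G6. The Dom WT call was lost without its replicate 1 (0.37) or 2 (0.21) or its day 15 library (0.24, adjusted p = 0.088), and the A3 call without its replicate 1 (0.17), its library of day 15 (0.22), day 21 (0.28) or day 52 (0.26), or replicate 1 (0.26) or 2 (0.25) of Dom WT.

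Smc6 (chr12:11265885-11319785, plus strand), the partner of Smc5, did not pass in any clone or period. Its mean in Dom WT was 213 ± 14.1 normalised RPM on days 2 and 3 (SD, n = 4), 201 ± 24.2 on days 5 and 7 (n = 4) and 199 ± 12.9 on late days (n = 4). The late changes ran from -0.25 in A3 (adjusted p = 0.094) to 0.15 in G6. With library totals they ran from -0.30 to -0.68, so that the signs of D5 and G6 turned, and 4 of 5 clones passed. Of the other Smc5/6 genes listed (6, of which 5 had enough fragments to test), 1 was called higher on late days in Dom WT and 2 in each other clone, and 1 lower in A3 and in Cast WT. With 26.1 to 33.3% of all genes called higher and 22.5 to 26.2% lower, these counts are near the background and no result about the list. Slf2, which the annotation used here names Fam178a and which recruits the complex to DNA damage, was 0.35 higher in Dom WT (adjusted p = 0.0022) and 0.64 in Cast WT (adjusted p = 2.5e-05).

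Of the cohesin genes, Smc3 passed on late days in 1 clone and Rad21 in none. Smc3 (chr19:53600395-53645831, plus strand), an ATPase of the ring, went from 149 to 162 normalised RPM on days 2 and 3 to 115 to 147 on late days in A3, without overlap. Its change of -0.23 there (SE 0.09, adjusted p = 0.034) passed, and was lost without replicate 2 (-0.23, adjusted p = 0.12) or the library of day 35 (-0.21, adjusted p = 0.072). In the other clones the change lay between -0.14 and -0.25 and did not pass. With library totals Smc3 passed in 5 of 5 clones, from -0.42 to -0.65. Rad21 (chr15:51962603-51991760, minus strand), the kleisin that closes the ring, was not called on late days, with changes from -0.13 to 0.11. With library totals it changed by -0.24 to -0.44, which turned the signs of D5 and G6, and passed in Cast WT (-0.42, adjusted p = 0.034). Of the other 13 cohesin genes, 3 were called higher and 2 lower in Dom WT, 4 and 4 in A3, 2 and 3 in Cast WT, 2 and 3 in D5, and 4 and 3 in G6. Over all genes 26.1 to 33.3% were called higher and 22.5 to 26.2% lower in these comparisons, so the counts lie near the background and are no result about the list. The lower ones included Esco2 and Cdca5, which act on cohesin around replication. Esco2 changed by -1.11 in Dom WT (adjusted p = 0.0011) and -1.97 in Cast WT (adjusted p = 2.5e-07), and Cdca5 by -1.24 (adjusted p = 0.0030) and -1.48 (adjusted p = 1.1e-05).

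Rad21 was higher in ES libraries than on days 2 and 3 in 3 of 3 KO clones, and Smchd1 was lower in 1 of 3. Rad21 was at 214 and 236 normalised RPM in ES libraries of A3, at 282 and 200 in D5 and at 303 in G6. On days 2 and 3 it was at 137, 157, 140 and 142 in A3, at 149, 124, 158 and 139 in D5 and at 148, 109, 159 and 140 in G6. Every ES value lay above every value of days 2 and 3 of its clone. The change from days 2 and 3 to ES was 0.64 in A3 (SE 0.22, adjusted p = 0.039), 0.76 in D5 (SE 0.19, adjusted p = 0.0052) and 1.12 in G6 (SE 0.24, adjusted p = 0.0028), the last from 1 ES library that is assumed to vary like the other groups. Beside these, 20.2% of genes were called in either direction in A3, 24.5% in D5 and 7.72% in G6, and 10.9, 13.8 and 4.72% were called higher. The A3 call was lost without either of its replicates (0.61 and 0.70) or either replicate of Dom WT (0.62 and 0.67), and the D5 call without replicate 2 (0.64, adjusted p = 0.074). In G6 the ES comparison itself moved with scaling by 0.19, and 61.2% of its calls were higher with TMM against 41.3% with library totals.

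Smchd1 read 315 and 353 normalised RPM in A3 ES, against 406, 553, 459 and 510 on days 2 and 3, with no overlap and a change of -0.53 (SE 0.17, adjusted p = 0.035). In D5 the ES values were 383 and 292 against 444, 332, 574 and 478, and in G6 426 against 552, 376, 600 and 549, with overlap in both. Their changes of -0.44 (adjusted p = 0.12) and -0.29 (adjusted p = 0.58) did not pass. The A3 call was lost with library totals (-0.48, adjusted p = 0.094), without either replicate of A3 (-0.65 and -0.37) and without either replicate of Dom WT (-0.55 and -0.50). On days 5 and 7 Smchd1 was higher than on days 2 and 3 by 0.15 to 0.24 in the 5 clones, and no change passed. Late changes had both signs, 0.18 in Dom WT and 0.06 in D5 against -0.19 in A3, -0.11 in Cast WT and -0.22 in G6, and none passed. With library totals the signs of Dom WT (-0.09) and D5 (-0.28) turned, and the falls in A3 (-0.59, adjusted p = 0.0028), Cast WT (-0.41, adjusted p = 0.036) and G6 (-0.63, adjusted p = 0.0022) passed. WT cultures had no ES library here, so the ES comparison is one of KO clones.

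Germ-cell relatives of the cohesin genes were listed too. All 4 meiotic genes listed were called lower on late days in 5 of 5 clones, with medians between -2.10 and -2.89, beside the 22.5 to 26.2% of all genes called lower. On late days these 4 genes summed to 7.80 to 17.9 RPM. Up to 3 of them in a Dom WT library, and up to 2 in the other clones, had 3 or fewer fragments. The medians therefore rest in part on few fragments. Smc1b, the meiotic form of Smc1a, changed by -4.67 in Dom WT (adjusted p = 2.0e-05) and -4.29 in Cast WT (adjusted p = 4.3e-07), from a mean of 22.7 normalised RPM on days 2 and 3 in Dom WT to 0.881. Rec8, the meiotic kleisin, was at 1.77 normalised RPM on days 2 and 3 in Dom WT and at 0.277 on late days, when no library held more than 10 fragments. Its fitted changes of -2.64 in Dom WT (adjusted p = 0.0020) and -1.99 in Cast WT (adjusted p = 0.034), where no late library held more than 16, rest on few fragments. In KO against WT on days 2 to 7, 3 genes of these lists were called, beside 0.803% of all genes in Dom and 0.381% in Cast. The lists held 15 cohesin, 8 condensin, 8 Smc5/6, 10 HP1 and H3K9 and 4 meiotic genes, so these few calls are no result about the lists. Ncapd2, a condensin I subunit, was 0.38 lower in A3 (adjusted p = 0.028). Suv39h1, an H3K9 methyltransferase on the X chromosome, was 0.38 higher in A3 (adjusted p = 0.030). Stag3, the meiotic cohesin subunit, was 0.42 lower in the Cast KO clones (adjusted p = 0.0053).

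Allele shares were close to balance for all 8 genes. The share is the number of fragments given to the Cast allele divided by those given to either allele, and it was tested with limma on the shares of genes with at least 10 allelic fragments in over 80% of libraries, with p-values adjusted over all genes tested. Over the 65 samples the mean share was lowest for Smc4 (0.476 ± 0.011, SD) and Smc3 (0.476 ± 0.021) and highest for Smc6 (0.509 ± 0.017). The most extreme shares belonged to Lrif1, which also had the fewest allelic fragments (141 to 1365 per sample): 0.416 in a Cast WT library of day 5 (138 of 332 fragments, 95% Wilson interval 0.364 to 0.469) and 0.560 in an A3 ES library (79 of 141, 0.478 to 0.640). Such intervals cover counting error only. Both alleles of each gene were read in every sample.

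None of the 8 genes passed in KO against WT in allele share, beside 0.56% of genes called in Dom and 0.318% in Cast on days 2 to 7, and 0% and 0.0424% on late days. Taken singly, D5 differed from WT in 3.37% of genes on days 2 to 7 and G6 in 0.58%, the clones differed from each other in 5.25%, and on late days these shares were 0.84, 0 and 0.492%, with 0 of the 8 genes called in each. On days 2 to 7 the differences were at most 0.006 in Dom and 0.016 in Cast in either direction, and the smallest adjusted p was 0.40 (Smc3 in Cast). The difference of differences likewise gave no call, beside 0.00811% of genes in Dom and 0.132% in Cast. For Smchd1 itself, the KO minus WT difference on days 2 to 7 was -0.002 (SE 0.005) in Dom and 0.002 (SE 0.004) in Cast.

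Smchd1 had a lower Cast share on late days in 5 of 5 clones, by 0.015 to 0.028. The values of D5 were 0.486, 0.502, 0.487 and 0.488 on days 2 and 3 and 0.462, 0.472 and 0.454 on days 15, 21 and 35. They did not overlap, and the change of -0.028 (SE 0.009, adjusted p = 0.020) was the only one that passed, beside 18.5% of genes called in D5. It was lost without replicate 1 (-0.032, adjusted p = 0.056) or replicate 2 of D5 (-0.024, adjusted p = 0.16), or without day 35 (-0.024, adjusted p = 0.12). In Dom WT the shares went from 0.494, 0.494, 0.498 and 0.492 to 0.469, 0.491, 0.479 and 0.434, the last being 2409 of 5548 fragments (0.421 to 0.447), and the change of -0.026 did not pass (adjusted p = 0.092). The changes were -0.019 in A3, -0.015 in Cast WT and -0.023 in G6 (adjusted p = 0.063). The Smchd1 share stood 0.016 to 0.028 above the median of genes within 10 Mb of it on days 2 and 3, and between 0.020 below and 0.003 above that median on late days.

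Smc5 and Smc6 gave the other share calls, both in Cast WT. The Smc5 share changed from 0.514 ± 0.013 (SD, n = 5) on days 2 and 3 to 0.482 ± 0.028 (n = 3) on late days, by -0.033 (SE 0.010, adjusted p = 0.016), beside 18.2% of genes called. The call was lost without the day 15 library (-0.017, adjusted p = 0.25), whose share of 0.451 (1760 of 3901 fragments, 0.436 to 0.467) is the lowest of that gene, or without replicate 2 of Cast WT (-0.024, adjusted p = 0.14). The Smc6 share went from 0.501 ± 0.022 (n = 5) to 0.531 ± 0.010 (n = 6) on days 5 and 7, by 0.030 (SE 0.010, adjusted p = 0.048), beside 11.4% of genes called. That call was lost in 9 of 18 other settings, each of which left out 1 replicate or library, with changes of 0.018 to 0.039. On chromosome 12 the median gene had a Cast share of 0.625 to 0.669, whereas genes within 10 Mb of Smc6 stood at 0.466 to 0.496, beside Smc6 itself. On late days 14.7% of genes in Dom WT, 16.6% in A3 and 17.9% in G6 were called in share, with none of the 8 genes among them. On days 5 and 7 the called shares were 4.96% of genes in Dom WT, 4.96% in A3, 7.23% in D5 and 6.3% in G6, and in ES libraries 7.88% in A3, 9.76% in D5 and 7.93% in G6, again without any of the 8 genes. The Smchd1 share in ES libraries averaged 0.523 in A3, 0.499 in D5 and 0.520 in G6.

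**Figure D4:**
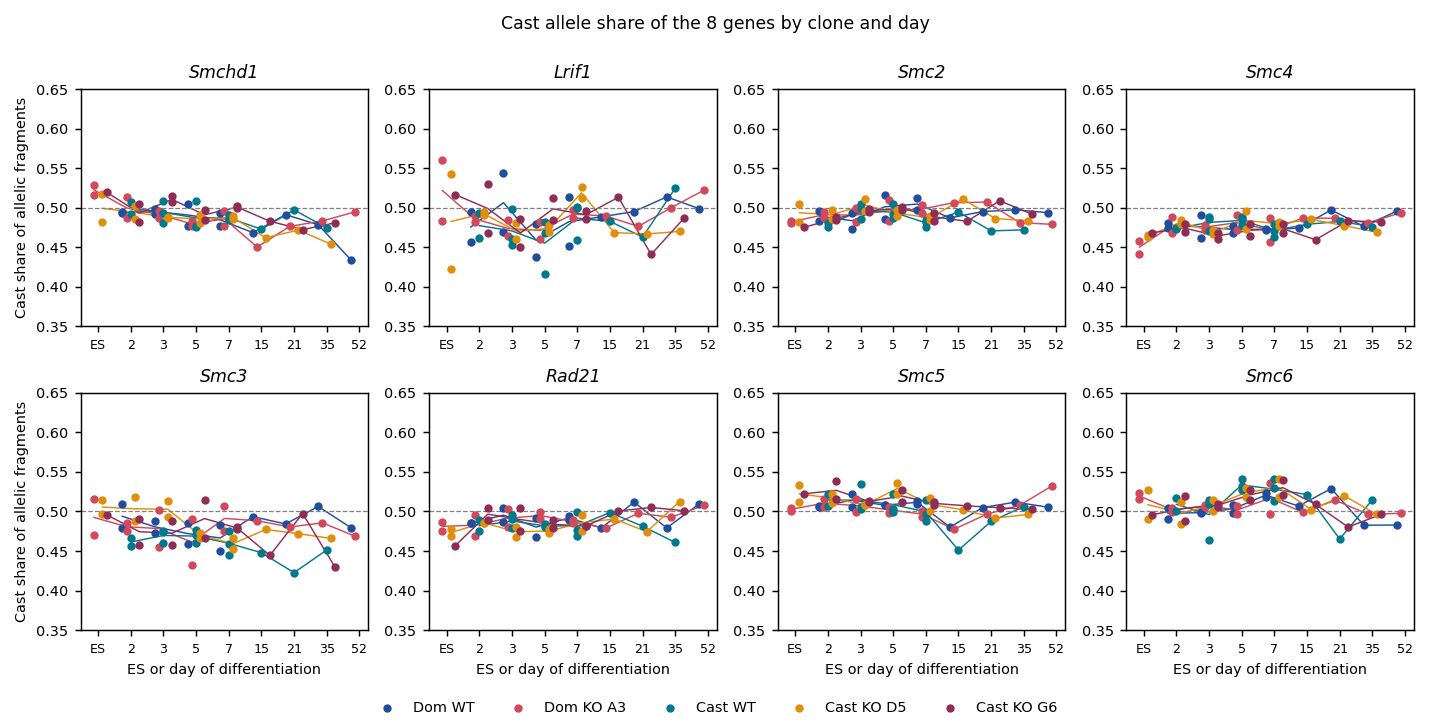
Cast share of allelic fragments (y axis, 0.35 to 0.65, dashed line at 0.5) of each of the 8 genes against ES or day of differentiation (x axis, evenly spaced), with 1 point per sample, clones by colour and lines through the mean of each clone and day. All shares lie between 0.416 and 0.560, and those of Smchd1 sit between 0.434 and 0.497 on late days.

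The genes whose pattern was most like that of Smchd1 were found by Pearson correlation of log2(RPM + 1) over the 40 clone-by-day means of both lines, among 16981 genes. The groups share libraries, depth and the course of differentiation, so the values are descriptions. The closest were Cldn6 (0.8998), Mapk4 (0.895), Med12l (0.894), Tdrd5 (0.893) and Cspp1 (0.890). For Lrif1 they were Ccdc50 (0.796), Tbc1d5 (0.776), Spopl (0.773), Zdhhc17 (0.754) and Ufl1 (0.749). On normalised RPM, Med12l remained among the closest for Smchd1 (0.831), and Ccdc50 (0.880), Spopl (0.869) and Zdhhc17 (0.857) for Lrif1. Smchd1 and Lrif1 were weakly alike (0.135 on RPM and 0.124 on normalised RPM). Among the SMC genes, Smchd1 was nearest to Smc3 (0.778, and 0.539 on normalised RPM) and Lrif1 to Smc5 (0.553, and 0.745 on normalised RPM).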

How the data were processed

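Chromatin-associated RNA-seq was analysed in 72 libraries of WT and Smchd1 KO mouse cells. The authors removed ribosomal RNA reads with Bowtie2 2.3.2, aligned with STAR 2.4.2a to N-masked mm10, split alleles with SNPsplit and counted stranded fragments over whole transcripts with featureCounts; the deposited counts are total and per-allele fragment counts per gene. The deposited allelic ratio (fraction) tables were used only to find which allele was which: 18337 of 18337 Cast-line ratios equalled genome1 over the sum. The 26 per-sample columns of the Dom ratio table carry names of Cast-line libraries and were not used.

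Runs of a replicate were summed. Counts were tested per line with edgeR 4.0.16 (R 4.3.3; TMM, filterByExpr, quasi-likelihood test) and shares with limma 3.58.1, adjusted by Benjamini-Hochberg at 0.05. KO was compared with WT with day as a factor, and periods within clones. DESeq2 1.42.0, library totals, no filter, other share settings and left-out replicates were alternatives. The fits were tested on simulated data. The simulated share changes were larger than any share change called here, and no late scaling shift was simulated. The simulation therefore does not cover these. Members and lists were chosen with earlier results of these data known. Beyond the 8 genes, the rule named from each list the 2 genes with the largest late change past the threshold in both WT lines, the 5 genes most alike in pattern, and markers. The single-clone share fits and correlations on normalised RPM were chosen after seeing the data. Start positions are as deposited; in 4 of 8 genes RefSeq starts 1 base later.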

Additional observations from a re-analysis of the deposited data

How the results depend on the processing

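Counts in this section are of the 8 genes past the threshold unless another unit is named. For total RNA, 272 of 357 alternative counts stayed within 1.5 times the reported one, and for the Cast share 296 of 317. Many reported counts were 0, among them every KO against WT count and most share counts. For these, staying within the limit means only that 0 stayed 0, which tells nothing of how firm a call is. Among 24 single calls, 327 of 440 alternatives kept the call, and 5 calls were kept under every one: Rad21 in ES cells of G6, Smc2 on late days in G6, Cast WT and A3, and Smc4 on late days in A3. G6 has 1 ES library, so no alternative could leave it out, and its Rad21 call was not tested in that way. Late Smc5 in A3 reversed to -0.11 with library totals, where the scaling itself moves the median gene. Elsewhere the cause was not tested.

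With library totals the count was 1 for D5 against WT and for D5 against G6 on days 2 to 7. It was 0 in A3, 1 in Cast WT and 1 in G6 on days 5 and 7, 6 in Cast WT, 4 in D5 and 4 in G6 on late days, and 1 in A3 ES. Without a filter on low counts the calls lost included Smc2 in Dom WT, Smc4 in Cast WT and Smc5 in A3 on late days and Rad21 in A3 ES, and the count was 0 in A3, 1 in Cast WT and 2 in D5 on days 5 and 7, 1 in Dom WT, 3 in A3 and 1 in Cast WT on late days, and 1 in A3 ES. Without day 15 it was 1 in Dom WT and 4 in Cast WT on late days, and 2 in D5 and 2 in G6 on days 5 and 7. With runs as separate replicates it was 1 in Cast WT, 2 in D5 and 2 in G6 on days 5 and 7. DESeq2 gave 1 for D5 against WT on days 2 to 7 and 2 in G6 ES. For the share, a minimum of 30 allelic fragments gave 1 in D5 on days 5 and 7.

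Leaving out 1 replicate or library gave 0 to 3 on late days in Dom WT, 3 to 5 in A3, 1 to 3 in Cast WT, 1 in D5 and 1 to 2 in G6. It gave 0 to 1 in A3, 0 to 3 in Cast WT, 0 to 2 in D5 and 0 to 1 in G6 on days 5 and 7, and 0 to 2, 0 to 1 and 1 in ES cells of A3, D5 and G6. Share counts ran from 0 to 1 in D5, G6, Cast WT and Dom WT on late days and in D5 and Cast WT on days 5 and 7. KO against WT gave 0 throughout.

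Same-numbered replicates of D5 and G6 deviated together on 4 of 4 days (correlations of 0.30 to 0.66). Those of WT with either clone had both signs (-0.24 to 0.63), and those of Dom were negative on 4 of 4 days (-0.66 to -0.29). With the replicate number as a block, the count was 0 for D5 against G6, with 5216 genes called in place of 3736. Against WT it was 0 in Dom, 0 in Cast, 0 for G6 and 1 for D5 (Smchd1), and all genes called were 130, 249, 1267 and 2755. The crossed pairing in Dom, chosen after seeing the data, gave 1 of the 8 genes and 540 of all genes. The share block gave 232 genes in Dom and 163 for G6. DESeq2 called 558 genes in Dom, 238 in Cast and 636 for G6 on days 2 to 7, 193 for D5, 632 for G6 and 42 for D5 against G6 on late days, and 57 in the Cast difference of differences.

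With 1 library per clone and day, late values carry no replicate of a day. Lrif1, with the fewest allelic fragments, has the widest share intervals.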
